A study of Canis lupus familiaris with 3 samples.

Results

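The 4 integrin subunit genes ITGAV, ITGA7, ITGB4 and ITGA2 were described in dog kidney epithelial cells that carry the transcription factor E47. They are 4 of 6043 genes that the array platform's annotation names with a single symbol, and 16 of 27648 spots carry one of these symbols. The members were taken by symbol. They were chosen by their measured log2 ratios: each passed a genome-wide test in the comparison described here, ITGAV and ITGA7 as higher and ITGB4 and ITGA2 as lower in E47 cells. Their ratios are therefore given as a description and carry no test. Of 5508 named genes tested, 9.19% passed in either direction, 5.34% as higher and 3.85% as lower, and since the same contrast chose the members nothing is read from their 4 passes beside these shares.

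The cells were MDCK, an established epithelial line from dog kidney. RNA of MDCK-E47 transfectants was hybridised together with RNA of MDCK-CMV control cells on 3 two-colour arrays of human cDNA clones, and both kinds of cell were grown in DMEM with fetal bovine serum. Extraction 1 of the E47 cells was labelled with Cy5 on 1 array, and extraction 2 was labelled once with Cy3 and once with Cy5, always against control RNA in the opposite dye. The arrays of extraction 2 share their E47 RNA and were averaged, which leaves n = 2 extractions. The labels do not say whether the transfectants were a single clone or a pool, or whether the extractions came from separate cultures, so the spread between extractions may be technical. The cells are labelled MDCK-E47_1 and MDCK-E47_2, so they could also be different transfectant lines; the design text calls them different RNA extractions, and that reading is used here. E47 is a basic helix-loop-helix factor encoded by TCF3, and the series title names it as a repressor of E-cadherin. The comparison asks how transcript levels differ between epithelial cells with and without the introduced factor.

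All values are log2 ratios, read as E47 over control. No label states which way they run; this reading is the likely one because the E47 cells are channel 1 of each sample and because CDH1, the gene of E-cadherin, had a log2 ratio of −3.59. With the opposite direction, higher and lower would change places throughout. Base 2 is likewise a reading of unlabelled logarithms. The dye-swapped Cy3 array correlated positively with the Cy5 array of the same extraction (r = 0.764 across 5508 genes, which are not independent replicates), so no sign was turned. The array of extraction 1, also in Cy5, correlated more with the Cy5 array of extraction 2 (r = 0.851) than with its Cy3 array (r = 0.694), so arrays of like dye were the more alike and the SD between extractions also holds a dye difference. A ratio says nothing of how bright a spot was, and signal over background is unknown. In RNA from a whole culture, fewer cells that express a gene and less RNA per cell cannot be told apart.

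Integrins are receptors made of an alpha and a beta subunit that span the cell membrane, bind matrix proteins or other cells outside, and connect to the cytoskeleton inside. The alpha subunit largely sets which ligand is bound. ITGAV encodes the alpha-v subunit, which pairs with the products of ITGB1, ITGB3, ITGB5, ITGB6 or ITGB8 and recognises the arginine-glycine-aspartate motif of fibronectin, vitronectin and latent TGF-beta. ITGA7 encodes a laminin-binding alpha subunit best known from muscle, which pairs with the ITGB1 product. ITGB4 encodes the beta subunit that pairs only with the ITGA6 product, binds laminin and, through a long cytoplasmic tail, anchors keratin filaments at hemidesmosomes. ITGA2 encodes the collagen-binding alpha subunit of epithelia and platelets, another partner of the ITGB1 product. Epithelial cells that turn mesenchymal are known to exchange part of their integrin set.

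Each of the 4 genes was measured by a single cDNA clone, so no second clone of the same gene could be set against it. The clone of ITGAV was printed at 2 positions, that of ITGB4 at 2, that of ITGA2 at 3 and that of ITGA7 at 1, with a pair of neighbouring spots at each position. All 16 spots had a value on every array. Each of the 4 symbols stands once in the RefSeq dog genes of assembly UU_Cfam_GSD_1.0. Because related dog transcripts can bind a human clone, the signal of other family members is not separated. The position of the clones in a genome was not analysed here.

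ITGAV had the highest mean ratio of the integrin subunits measured, though ITGA7 lay above it on the Cy3 array of extraction 2 (1.05). The log2 ratio of ITGAV was 1.39 on the array of extraction 1, 0.83 on the Cy3 array of extraction 2 and 1.26 on the Cy5 array of extraction 2. All 12 spot values lay above 0, between 0.80 and 1.44, and the Cy3 array was the low one. The mean over extractions was 1.22 ± 0.24 (SD, n = 2), which is 2.32-fold higher in E47 cells, with 1.78-fold on the lowest array and 2.61-fold on the highest. The 2 print positions gave means of 1.22 and 1.21, and the spots of a pair differed by at most 0.08. Printing added much less spread than the dye swap, whose arrays differed by 0.42 (Cy5 minus Cy3), more than in 88.4% of named genes.

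ITGA7 was higher by a similar amount. The 3 arrays gave 0.93, 1.05 and 0.83, first extraction 1, then the Cy3 and the Cy5 array of extraction 2. The mean was 0.94 ± 0.0020 (SD, n = 2), or 1.91-fold. This very small SD compares the mean of extraction 2, 0.94, with extraction 1, and it hides a dye-swap difference of −0.23, here with Cy3 as the high array, opposite to ITGAV. Only 2 spots measured the gene, with 6 values between 0.72 and 1.08, and the spots of the pair differed by up to 0.22. The ITGA7 pair stands directly beside one of the ITGAV pairs on the list of spots. That ITGAV pair had a mean of 1.21, against 1.22 for the ITGAV pair elsewhere. ITGA7 had no pair elsewhere, so any effect of this neighbour on the ITGA7 ratio was not tested, and the ITGAV means do not decide it.

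ITGB4, the hemidesmosomal subunit, had the lowest mean ratio of the integrin subunits measured. On single arrays of extraction 2 another subunit lay below it, ITGA4 with Cy3 (−1.35) and ITGA2 with Cy5 (−0.87). The arrays of ITGB4 gave −0.94, −0.63 and −0.71, and all 12 spot values were negative, from −1.05 to −0.59. The mean was −0.81 ± 0.19 (SD, n = 2), which is 1.75-fold lower, between 1.55-fold and 1.92-fold on single arrays. Extraction 1 was the low array. The dye swap differed by −0.079, less than in most genes, whose median size of that difference was 0.167. The 2 print positions had means of −0.78 and −0.83.

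ITGA2 was 1.57-fold lower. The arrays gave −0.61, −0.50 and −0.87, and the mean was −0.65 ± 0.05 (SD, n = 2). All 18 spot values were negative, but they spread more than those of the other members, from −1.27 to −0.32. The values differed both between arrays and between positions: on the Cy5 array of extraction 2 the 3 positions gave −0.66, −0.75 and −1.21, and on the Cy3 array −0.50, −0.36 and −0.63. The third position was the lowest on both arrays of extraction 2, while on extraction 1, with −0.51, −0.76 and −0.57, the second was. The spots of a pair differed by at most 0.15, less than the positions did on any array. The third ITGA2 position stands directly beside an ITGB8 pair on the list of spots. That ITGB8 pair had a mean of 0.10, against 0.49 for the ITGB8 pair elsewhere. Whether the place on the array played a part was not tested.

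**Figure D1:**
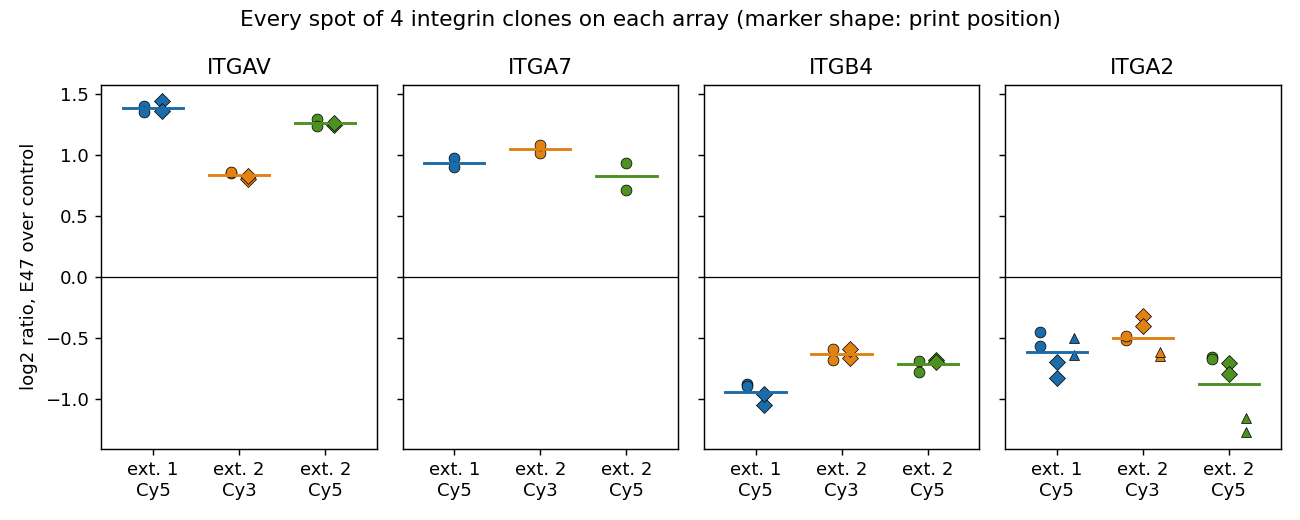
Log2 ratio of E47 over control (y axis) for every spot of ITGAV, ITGA7, ITGB4 and ITGA2 on the 3 arrays (x axis, extraction and dye of the E47 RNA). Marker shape gives the print position and the line the mean of the spots. All ITGAV and ITGA7 spots lie above 0, all ITGB4 and ITGA2 spots below, and the third ITGA2 position reaches −1.27 on the last array.

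Among all 5508 named genes the 4 ratios lay in the outer part of the distribution but far from its ends. ITGAV ranked 93rd and ITGA7 165th from the highest mean log2 ratio, while ITGB4 ranked 189th and ITGA2 295th from the lowest. The table runs from −3.59 to 3.86 with a median of −0.02. The difference between extractions, extraction 1 minus extraction 2, was 0.34 for ITGAV and −0.27 for ITGB4, larger in size than in 85.9% and 79.9% of named genes. For ITGA2 it was 0.07 and for ITGA7 −0.0029. ITGAV and ITGA7 lay above 0 on all 3 arrays, as 30.6% of named genes did, and ITGB4 and ITGA2 below 0, as 32.8% did; these arrays chose the members, so nothing is read from this.

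**Figure D2:**
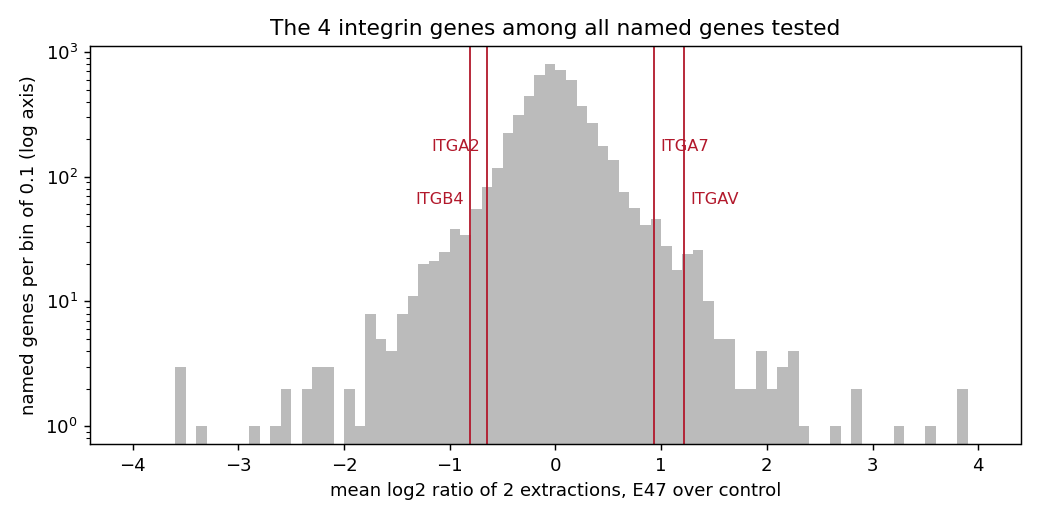
Number of named genes (y axis, log scale) by mean log2 ratio of 2 extractions (x axis, bins of 0.1), with the 4 integrin genes as vertical lines. ITGAV at 1.22 and ITGA7 at 0.94 lie on the right shoulder and ITGA2 at −0.65 and ITGB4 at −0.81 on the left, well inside the range of −3.59 to 3.86.

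The genes nearest to each member in log2 ratio over the 3 arrays were found by Euclidean distance, as a description of likeness over 3 points of which 2 share their RNA. ITGAV was nearest to TWIST1, a helix-loop-helix factor, at a distance of 0.055, followed by TPBG at 0.101 and TMEFF1 at 0.127. TWIST1 gave 1.44, 0.85 and 1.24 against 1.39, 0.83 and 1.26 for ITGAV. ITGA7 was nearest to DNA2 at 0.054, GET1 at 0.066 and COL11A1 at 0.067. The nearest genes of ITGB4 were the ribosomal protein gene RPS19 at 0.049, BACE2 at 0.102 and NMI at 0.133, and those of ITGA2 were LRRC59 at 0.080, CLIP1 at 0.099 and CAPN12 at 0.113. Within a distance of 0.2 there were 5 genes for ITGAV, 25 for ITGA7, 16 for ITGB4 and 17 for ITGA2, so ITGAV had the fewest genes near it.

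Besides the members, 18 other integrin subunits had a single symbol on the array and 17 had a value on every array. The members are the subunits that passed at an adjusted p under 0.05 by limma. The choice itself therefore fixes that none of the other 17 did. At an unadjusted p under 0.05 by limma, 3 were higher and 2 lower (29.4%, against 35.6% of all named genes). The median log2 ratio of the 17 was −0.08. On all 3 arrays 4 lay above 0 (23.5%, against 30.6% of all named genes) and 5 below 0 (29.4%, against 32.8%). The choice of members took the passing subunits out of these shares, so nothing is read from them. ITGB1, the partner of ITGA2 and ITGA7, and ITGA3 were not analysed here, and ITGA2B had no value on the Cy3 array.

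ITGAE and ITGA5 came nearest to the threshold without passing. In order of adjusted p the last subunit inside was ITGB4, with its log2 ratio of −0.81, and the first outside was ITGAE, the subunit that binds E-cadherin, at 0.47; this describes where the choice of members ended. ITGA5, the fibronectin receptor subunit, had a log2 ratio of 0.88 ± 0.42 (SD, n = 2), close to ITGA7, with an adjusted p of 0.0721 by limma. Its arrays gave 1.18, 0.61 and 0.56, so extraction 1 stood apart. The 2 ITGA5 clones agreed in sign on every array but not in size, at 1.20 and 0.56. ITGA5 passed with the arrays scaled (adjusted p = 0.0459 by limma), with the 3 arrays taken as separate values (0.0353) and with named genes alone tested (0.039). ITGAE was at 0.47 ± 0.07 (SD, n = 2; adjusted p = 0.0664 by limma) and above 0 on all 3 arrays, and it passed with the 3 arrays as separate values (0.0475) and with named genes alone tested (0.0307).

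The measured partners of ITGAV had smaller ratios, and none passed. ITGB8 was at 0.30 ± 0.04 (SD, n = 2) with an adjusted p of 0.118 by limma, ITGB3 at 0.19 with 0.221, ITGB5 at −0.08 with 0.524 and ITGB6, a subunit of epithelia, at −0.21 with 0.189. ITGB8 gave 0.27, 0.46 and 0.19 on the arrays, and its 2 print positions differed, at 0.49 and 0.10. On each array all 4 partners lay below ITGAV, by 0.38 to 1.56 on the log2 scale; ITGAV had been chosen for a high value, so this gap is not tested. The clones of ITGB6 were at −0.33 and −0.09.

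ITGA6, the partner of ITGB4, lay below 0 on every array, at −0.25, −0.62 and −0.66. Its mean was −0.44 ± 0.28 (SD, n = 2), with an adjusted p of 0.124 by limma. With the 3 arrays taken as separate values, which counts the dye swap as independent, ITGA6 passed as lower (adjusted p = 0.0485 by limma). In extraction 2 ITGA6 lay within 0.05 of ITGB4 on both arrays, at 0.012 and 0.047 above it, whereas in extraction 1 it lay 0.70 above it. The 2 subunits of the hemidesmosomal integrin thus had like ratios in one extraction and unlike ratios in the other.

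The remaining alpha subunits were closer to 0. The collagen-binding ITGA11 and ITGA10 were at −0.30 and −0.23 and below 0 on all 3 arrays, as ITGA2 was, without passing (adjusted p = 0.12 and 0.162 by limma). ITGA9 was at −0.25 and ITGA8 at −0.01, with arrays on both sides of 0. ITGA4 was read from 1 spot and its dye swap gave −1.35 with Cy3 and 0.74 with Cy5, so its mean of −0.19 averages values of opposite sign. The subunits known from leukocytes, ITGB2, ITGAL, ITGB7, ITGAX and ITGAM, lay between −0.34 and 0.04, and none passed.

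In the order of the 21 subunits by mean log2 ratio, 19 of 20 neighbouring pairs had overlapping array values. The exception was the step from ITGB3 to ITGAM. ITGAV and ITGA7 overlapped, as did ITGA7 and ITGA5, ITGA6 and ITGA2, and ITGA2 and ITGB4, so the place of a subunit next to its neighbour is not set by these arrays.

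**Figure D3:**
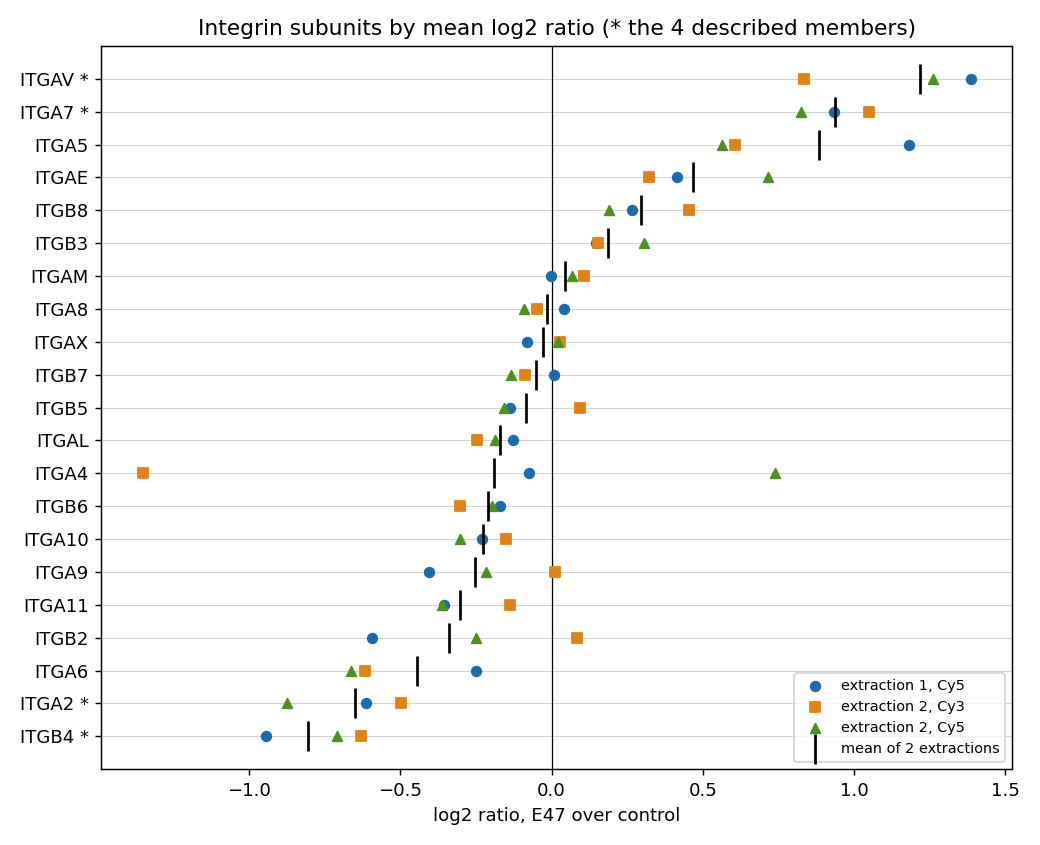
Log2 ratio of E47 over control (x axis) on each of the 3 arrays for the 21 integrin subunits measured (y axis, ordered by mean), with the mean of 2 extractions as a bar and the 4 members starred. ITGAV at 1.22 and ITGB4 at −0.81 are the ends of the order, ITGA5 at 0.88 lies beside ITGA7, and the ITGA4 arrays run from −1.35 to 0.74.

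**Figure D4:**
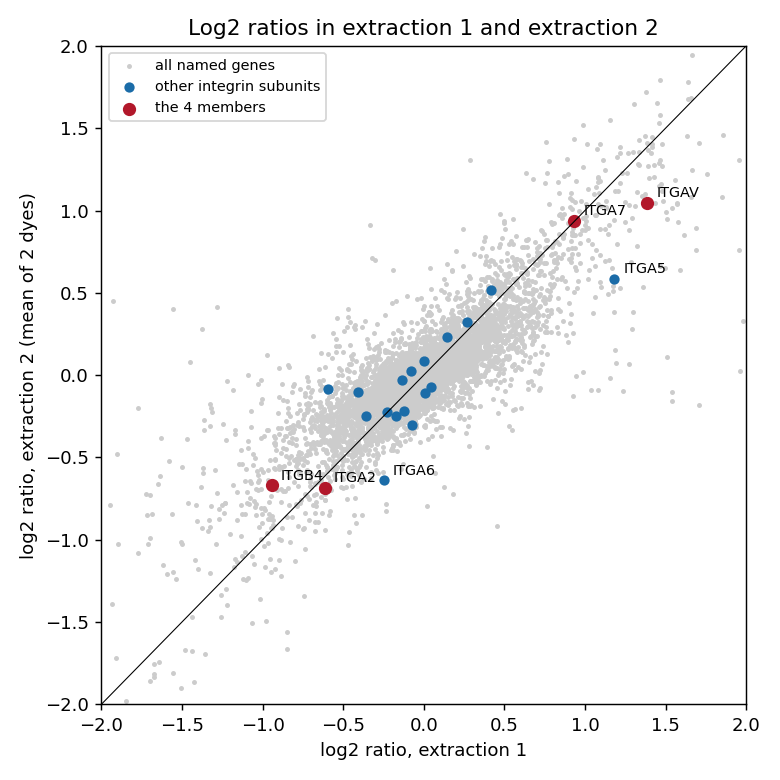
Log2 ratio in extraction 1 (x axis) against the mean of both dyes in extraction 2 (y axis) for all named genes, the other integrin subunits and the 4 members, with the line of equal values; genes beyond 2 on either axis lie outside the frame. ITGA7 falls on the line with 0.93 and 0.94, ITGAV (1.39 and 1.05) and ITGA5 (1.18 and 0.58) lie under it, and ITGB4 (−0.94 and −0.67) lies above it.

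Ligands of integrins passed in both directions. Of 29 measured genes 2 rose and 2 fell (13.8%, against 9.19% of all named genes), with a median log2 ratio of −0.05. FN1, fibronectin and a ligand of the alpha-v and ITGA5 integrins, rose to 2.29 ± 0.11 (moderated SE, n = 2; adjusted p = 0.0194 by limma), with 2.43, 2.27 and 2.01 on the arrays. CCN1, a matricellular ligand of alpha-v integrins, fell to −1.30 ± 0.09 (adjusted p = 0.0197 by limma, n = 2), and its clones were at −1.03 and −1.56. NID2, the basement membrane protein nidogen-2, fell to −1.15 ± 0.08 (adjusted p = 0.0201 by limma, n = 2). The pass of COL1A2, a collagen chain, at 0.68 rested on clones of opposite sign, 1.52 and −1.001; with clones averaged first it was at 0.26 with an adjusted p of 0.16 by limma. The laminin chain genes LAMB1, LAMC1, LAMB2, LAMA1 and LAMA2 did not pass, with ratios from −0.44 to 0.48. Without the Cy3 array of extraction 2, 7 of the 29 ligand genes passed. In that setting 919 of 5508 named genes passed, against 506 in the main fit.

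Genes of the cytoplasmic side of adhesions passed about as often as genes in general. Of 33 measured focal adhesion genes 2 rose and 1 fell (9.09%, against 9.19% of all named genes), and the median was −0.06. TES, a LIM domain protein of focal adhesions, fell to −0.64 ± 0.09 (moderated SE, n = 2; adjusted p = 0.0423 by limma). It lost this call with scaled arrays (0.0659), with incomplete spots kept (0.0555) and without the Cy5 array of extraction 2 (0.104). ITGB3BP rose to 0.95 ± 0.09 (adjusted p = 0.0247 by limma, n = 2); its product was named for binding the ITGB3 tail and is also a centromere protein. CSK, the kinase that inhibits SRC family kinases, passed at 0.58 (adjusted p = 0.0444 by limma), but its clones had opposite signs, 1.53 and −0.38. SRC itself was at −0.77 with −1.09, −0.06 and −0.83 on the arrays and did not pass. Talin (TLN1) at 0.14, vinculin (VCL) at −0.33, paxillin (PXN) at −0.37 and focal adhesion kinase (PTK2) at −0.08 did not pass. ITGB1BP1, which competes with talin for the ITGB1 tail, was at 0.63 and did not pass. The count was 0 without the Cy5 array of extraction 2 and 5 without its Cy3 array. Of 5508 named genes 109 and 919 passed in these settings, against 506 in the main fit.

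Hemidesmosome genes other than ITGB4 were few on the array. Of 4 measured 1 passed (25%, against 9.19% of all named genes). It was KRT14, a basal keratin, which fell to −2.57 ± 0.13 (moderated SE, n = 2, adjusted p = 0.0194 by limma). The plakin gene DST at 0.02 and the tetraspanin gene CD151 at 0.17 did not pass. ITGA6 did not pass either, which the choice of members had fixed. Among 15 lateral partners, which associate with integrins in the membrane, 1 rose and none fell (6.67%, against 9.19% of all named genes). It was TSPAN8, a tetraspanin, at 0.93 ± 0.08 (adjusted p = 0.0241 by limma, n = 2). The others lay between −0.22 and 0.31, with the thrombospondin receptor CD47 the highest of them, and the median of the 15 was 0.08. Without the Cy5 array of extraction 2 no lateral partner passed, with TSPAN8 at an adjusted p of 0.0584 by limma. In that setting 109 of 5508 named genes passed, against 506 in the main fit.

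Genes of integrin traffic, which carry receptors between endosomes and the surface, lay mostly below 0. Of 14 measured, 11 were below 0 on all 3 arrays (78.6%, against 32.8% of all named genes) and none above, and the median was −0.21. The list was chosen with earlier results of these data known, and the arrays of extraction 2 share their E47 RNA. The share is therefore a description. By the test 2 passed (14.3%, against 9.19% of all named genes), both lower. ARF6, a small GTPase of integrin recycling, fell to −1.07 ± 0.10 (moderated SE, n = 2; adjusted p = 0.0241 by limma), with −0.98, −1.11 and −1.22 on the arrays and clones at −1.20 and −0.83. RAB11A, the GTPase of the recycling endosome, fell to −1.01 ± 0.10 (adjusted p = 0.0264 by limma, n = 2). RAB11B at −0.63 and RAB5A and the effector RAB11FIP1 at −0.38 and −0.37 did not pass. Without the Cy5 array of extraction 2 neither gene passed, at adjusted p-values by limma of 0.0525 for ARF6 and 0.0572 for RAB11A. With scaled arrays they were at 0.0511 and 0.0576, and RAB11B passed in their place at 0.047. Of 5508 named genes 109 passed without that Cy5 array and 437 with scaled arrays, against 506 in the main fit.

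**Figure D5:**
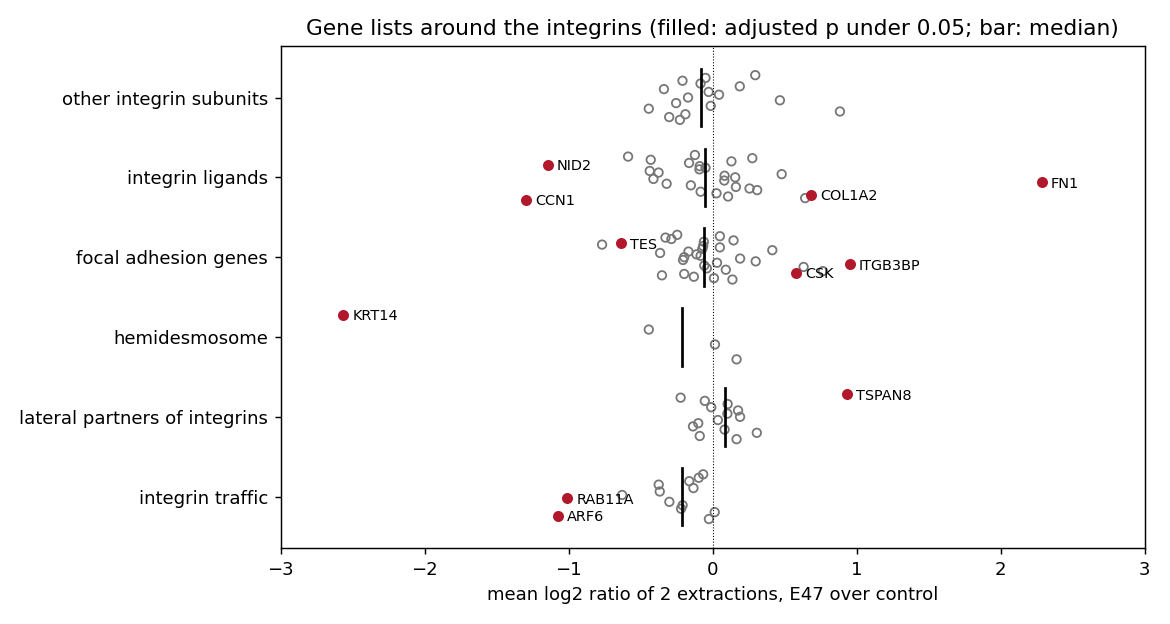
Mean log2 ratio of 2 extractions (x axis) for each measured gene of 6 lists (y axis), without the 4 members; filled points passed at an adjusted p under 0.05 and the bar is the list's median. The integrin row has no filled point because the subunits that passed are the members left out; ligands run from CCN1 at −1.30 to FN1 at 2.29, and the traffic genes lie between −1.07 and 0.01.

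Markers of cell state were read beside these values. All 7 measured epithelial markers fell (100% passed, against 9.19% of all named genes), with a median of −1.16. Among them were CDH1, KRT19 at −3.54, and DSP and CLDN1 at −1.16. The direction of all ratios was read partly from CDH1, so its fall is part of that reading and no separate result. The marker lists were chosen with earlier results of these data known. EPCAM was at −2.54, with clones at −1.41 and −3.66. Of 7 fibroblast and mesenchymal markers 4 rose (57.1%, against 9.19% of all named genes), SPARC to 2.85 and S100A4 to 1.55 beside FN1 and COL1A2. The COL1A2 clones had opposite signs, and its pass was lost with clones averaged first. N-cadherin (CDH2) at 0.02, THY1 at 0.02 and ACTA2 at −0.11 did not pass, and ACTA2 lay below 0 on all 3 arrays. CLDN1 lost its call without the Cy5 array of extraction 2 (adjusted p = 0.0682 by limma) and S100A4 with scaled arrays (0.0526). Among 11 leukocyte and platelet markers 1 passed (9.09%, against 9.19% of all named genes), PTPRC at 1.03 from 1 spot. The other 10 lay between −0.34 and 0.16. The integrin subunits among these could not pass, because the subunits that passed were made members. The part of these markers in the integrin ratios was not tested. By mean log2 ratio every epithelial marker measured was larger in size than ITGB4 and ITGA2, down to CLDN4 at −0.92. This did not hold on every array: on that of extraction 1 CLDN4 was at −0.83 and ITGB4 at −0.94.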

How the data were processed

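The authors deposited ratios, read here as log2, in 1 column for each of 3 two-colour arrays. How background was corrected and arrays were normalized, the base and the direction are not stated in the labels. Medians of −0.00506, 0.00266 and 7.67e-04 per column point to centred arrays; a log base of 10 was set aside because the largest value, 7.80, is above 4.82, the log10 of a 16-bit scanner's range. Arrays gave 25537, 25282 and 24771 values for 27648 spots, and depth has no meaning here: the number of arrays limits the precision. Genes were named from the platform annotation, where 17488 spots have 1 symbol, 654 several and 9506 none, and 5027 of 5508 tested symbols (91.3%) are in the dog table.

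For each gene, spots measured on every array were averaged, and spots without a single symbol were tested one by one. The dye swap of extraction 2 was averaged. A fit with limma 3.58.1 (lmFit, eBayes; R 4.3.3) tested the mean ratio of each of 14008 features against 0, with p-values adjusted by Benjamini-Hochberg, a threshold of 0.05 and 2.71 prior degrees of freedom. The control RNA was taken as a common reference, so the test leaves out its spread, and extraction 1 has no dye swap. The SE is limma's moderated one; the SD is that of the 2 extractions. The code of the fit was run on ratios simulated from its own model, with changes larger than those of the members. That run does not show how well changes of their size are found. The members and gene lists were chosen with earlier results of these data known. Named are the 4 members, every measured integrin subunit, of each further list up to 5 genes that passed, or else the 2 largest, and the 3 genes nearest each member; other list genes named were chosen after their values were seen. Figures were drawn with matplotlib 3.10.9.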

Additional observations from a re-analysis of the deposited data

How the results depend on the processing

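Under 13 alternatives each of the 4 members kept its sign. All spot values of a member had the same sign on every array, so a change of sign was hardly possible. The kept signs are therefore no support for the members, and several alternatives left their ratios unchanged. Without extraction 1 and without extraction 2, in that order, ITGAV was at 1.05 and 1.39, ITGA7 at 0.94 and 0.93, ITGB4 at −0.67 and −0.94, and ITGA2 at −0.69 and −0.61, as values with no test. Without the Cy3 array of extraction 2 ITGA2 was at −0.74 and ITGA7 at 0.88; without its Cy5 array they were at −0.55 and 0.99; with scaled arrays ITGA7 was at 0.92. Read as natural logarithms, the folds of ITGAV, ITGA7, ITGB4 and ITGA2 would be 3.38, 2.55, 2.24 and 1.91. The passes that chose the members are no support for them, and they depended on the arrays and settings used: all 4 were lost without the Cy5 array of extraction 2, those of ITGB4 and ITGA2 also with incomplete spots kept, and that of ITGA2 with scaled arrays.

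The count of named genes that passed (506) became 1008 with 3 arrays as separate values, 919 without the Cy3 array of extraction 2, 109 without its Cy5 array, 1175 with named genes alone tested and 1244 at a threshold of 0.1. Taking 3 arrays as separate values counts the dye swap as independent. For the same 5 alternatives in that order, the count of focal adhesion genes (3) became 6, 5, 0, 7 and 8, and it was 1 with incomplete spots kept. The count of traffic genes (2) became 5 with separate arrays, 0 without the Cy5 array, 1 with scaled arrays, and 5 with named genes alone and at the threshold of 0.1. Other integrin subunits (0) became 3 with separate arrays, 1 with scaled arrays, and 2 with named genes alone and at 0.1. Integrin ligands (4) became 7 without the Cy3 array, lateral partners (1) became 0 without the Cy5 array, and hemidesmosome genes (1) became 2 with separate arrays. The cause was not tested. Among 36 other named genes, 9 lost a pass under at least 1 alternative, 8 of them without the Cy5 array of extraction 2, and ITGA4 turned to 0.33 without the Cy3 array. No paired analysis was possible because all samples form a single group. Signal over background is unknown, so no filter on dim spots could be tried.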

Other observations

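ITGBL1, which encodes a secreted protein related to the beta subunits but no integrin subunit itself, was in no list and was chosen after its value was seen. Its log2 ratio was 1.46 ± 0.14 (moderated SE, n = 2; adjusted p = 0.0247 by limma), higher than that of any integrin subunit measured, with 1.67, 1.32 and 1.17 on the arrays from 1 clone, while a second clone had no value on any array.

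A spot pair assigned to the genes of both PELO and ITGA1 was not used. A clone of ITGB2 and the clone of ITGA2B had no value on the Cy3 array of extraction 2; they gave −0.25 and −0.12, and −0.04 and 0.02, on the Cy5 arrays of extraction 1 and extraction 2.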
